A study of Mus musculus with 4 samples.

Results

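The 10 genes described here belong to the Nrf2 antioxidant pathway and were measured in mouse hearts kept under pressure overload for 1 week by TAC, an operation in which a band narrows the aortic arch and the left ventricle has to pump against it. They are Nfe2l2, which encodes the transcription factor Nrf2, Keap1, and the Nrf2 target genes Nqo1, Gclc, Gclm, Txnrd1, Srxn1, Slc7a11, Prdx1 and Gsr. Each was read from a probe set whose only gene symbol in the array annotation is that gene, and from the probe set with the highest mean where there were several. All 10 were found among the 19938 genes so named on the array. Hmox1, another Nrf2 target, is not one of the 10 and serves as a point of reference.

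The hearts came from 1 wild type mouse sample and 3 samples without MAFbx (atrogin-1, encoded by Fbxo32), a muscle F-box protein that selects substrates for an SCF ubiquitin ligase. Both genotypes had the constriction for 1 week, and no heart without it was analysed here. The labels give neither strain, age nor sex, nor the deleted part of the gene. They number the samples within a genotype without saying that each is a separate animal, so the spread between knockout samples may be partly technical. Total RNA was read on Affymetrix Mouse Gene ST arrays, and every value below is a log2 RMA value unless it is called a difference.

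Nrf2 is held at a low level by Keap1, an adaptor that presents it to a Cul3 ubiquitin ligase for degradation. Oxidants and electrophiles modify Keap1, and Nrf2 then accumulates, pairs with small Maf proteins and binds antioxidant response elements in its target genes. This control acts mostly on the protein, so the transcript of Nfe2l2 does not by itself report the activity of the factor. The targets make and recycle glutathione, keep thioredoxin and peroxiredoxins reduced, and detoxify quinones. In the heart the pathway is known for limiting oxidative damage under load and after ischaemia.

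The promoters show where such elements lie next to the start of these genes. Windows of 250 bases before the start were taken from RefSeq (GRCm38.p6) and searched on both strands for the core antioxidant response element TGACNNNGC and for TGANTCAGC, an element bound by Nrf2 or Bach1 with a small Maf. The letters TGACTCAGC satisfy both motifs. Of the 10 genes, 8 matched a window, and Gclc and Gsr did not. The core motif was in a window of 4 of these 8, against 11.5% of the 27025 genes with a window, and TGANTCAGC was in 2 of 8, against 1.17%. The 5 windows that hold either motif are printed 5′ to 3′ in the direction of the gene, with the matches in capitals (some read on the opposite strand).
Nfe2l2: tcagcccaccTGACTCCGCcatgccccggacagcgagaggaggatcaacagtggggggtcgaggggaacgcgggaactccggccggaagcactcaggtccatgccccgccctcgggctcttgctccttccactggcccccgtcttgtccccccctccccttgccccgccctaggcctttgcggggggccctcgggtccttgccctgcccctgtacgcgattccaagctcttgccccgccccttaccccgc
Gclm: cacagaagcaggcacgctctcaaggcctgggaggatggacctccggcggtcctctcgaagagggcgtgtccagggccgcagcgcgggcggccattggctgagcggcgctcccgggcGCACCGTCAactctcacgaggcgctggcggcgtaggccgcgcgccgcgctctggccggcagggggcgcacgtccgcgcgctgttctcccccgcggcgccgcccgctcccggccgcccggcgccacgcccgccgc
Txnrd1: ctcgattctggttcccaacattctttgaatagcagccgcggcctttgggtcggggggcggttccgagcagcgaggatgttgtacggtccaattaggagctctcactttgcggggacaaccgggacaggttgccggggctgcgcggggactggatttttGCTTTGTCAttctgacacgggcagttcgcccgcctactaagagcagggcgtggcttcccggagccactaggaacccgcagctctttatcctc
Srxn1: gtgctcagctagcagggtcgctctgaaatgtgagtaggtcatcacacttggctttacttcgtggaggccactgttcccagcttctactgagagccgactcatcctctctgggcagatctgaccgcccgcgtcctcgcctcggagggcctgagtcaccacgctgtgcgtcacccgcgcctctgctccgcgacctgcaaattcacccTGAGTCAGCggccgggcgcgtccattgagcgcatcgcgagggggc
Prdx1: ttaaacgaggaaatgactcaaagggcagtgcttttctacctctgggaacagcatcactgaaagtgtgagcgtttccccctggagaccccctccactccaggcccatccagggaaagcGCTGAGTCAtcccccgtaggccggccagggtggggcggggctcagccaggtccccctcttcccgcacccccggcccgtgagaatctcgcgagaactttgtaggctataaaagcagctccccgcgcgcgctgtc

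The window of Nfe2l2 lies at chr2:75704664-75704913 on the minus strand, and its match TGACTCCGC is 232 to 240 bases before the start. That of Gclm (chr3:122245307-122245556, plus strand) holds TGACGGTGC on the opposite strand, 126 to 134 bases before the start. Txnrd1 has 3 starts in the table, and the window of 1 of them (chr10:82858956-82859205, plus strand) holds TGACAAAGC on the opposite strand, 84 to 92 bases before it. Srxn1 (chr2:152105274-152105523, plus strand) has TGAGTCAGC 37 to 45 bases before the start, and Prdx1 (chr4:116685349-116685598, plus strand) has TGACTCAGC on the opposite strand, 125 to 133 bases before it. The shorter AP-1 motif TGANTCA, contained in TGANTCAGC, occurred in 7.82% of genes, and both Srxn1 and Prdx1 hold it a second time, 96 to 102 and 231 to 237 bases before the start. A match is a run of letters and not a measured binding site, and the missing matches in Keap1, Nqo1 and Slc7a11 concern these windows alone.

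The arrays were alike in their distribution but not in everything. Fbxo32 read 7.54 in wild type and 5.65, 5.61 and 5.56 in the knockouts (lower in all 3), and the position of its probe set relative to the deletion was not analysed here. Xist, the RNA of the inactive X chromosome, was high in knockouts 1 and 2 (9.18 and 9.52) and low in knockout 3 and wild type 1 (3.20 and 4.13), and the Y-linked Eif2s3y was the reverse. The wild type heart therefore shares this pattern with knockout 3 alone, and the difference between that pair is given beside the whole comparison. Across genes, the Pearson correlation was 0.9838 between wild type 1 and knockout 3 and 0.9864 between knockouts 1 and 2. Knockout 3 correlated less with knockouts 1 and 2 (0.974 and 0.9786) than with wild type 1. Wild type 1 correlated with knockouts 1 and 2 at 0.9696 and 0.9747. The arrays were thus divided in the same way beyond Xist and Eif2s3y, and the cause was not tested. Markers of cardiomyocytes had mean values between 12.97 and 13.13 on the 4 arrays. Those of T and B cells had mean values between 4.25 and 4.54, below the level of 4.70 under which genes were not tested. Of these 4 markers only Cd3e was tested, with 5.59 in wild type and 5.69, 5.93 and 5.80 in the knockouts.

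Genotypes were compared with limma over 14955 genes, after 25% of genes with the lowest means (under 4.70) were left out, and p-values were adjusted over all of them by the Benjamini-Hochberg method. With a single wild type array the spread comes from the 3 knockout arrays, and the wild type is taken to vary as they do. For 1 array against 3 the smallest p of an exact permutation test is 0.25. Over all genes 1 was called at an adjusted p under 0.05, which is 0.00669% of those tested, and it was Hmox1. Fbxo32, the targeted gene, differed by -1.93 and was not called (limma adjusted p = 0.0547). None of the 9 tested pathway genes was called by limma, and 0 of them had an unadjusted p under 0.05, against 4.05% of genes lower and 1.68% higher at that level. Slc7a11 was too dim to be tested.

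Most of the 10 genes read slightly lower in the knockout hearts, without passing the test. For 7 of the 10 genes every knockout array lay below the wild type array, where 24.6% of the genes tested did so. They were Nfe2l2, Gclc, Gclm, Txnrd1, Srxn1, Slc7a11 and Gsr, and 6 of these 7 were among the 9 tested. One gene, Nqo1, lay above on every knockout array, where 23.9% of genes did, and Keap1 and Prdx1 overlapped. The median difference over the 10 genes (knockout minus wild type) was -0.24, beside a median of 0.00 over all genes tested. Per array it was -0.18 in knockout 1, -0.22 in knockout 2 and -0.26 in knockout 3. In each knockout heart 8 of the 10 genes read below the wild type heart, and each count rests on the same wild type array. Over all genes tested the median difference was 0.01, 0.00 and -0.01 in knockouts 1, 2 and 3. The 10 genes share arrays and regulators, so they are not independent, and the counts describe these 4 arrays.

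**Figure D1:**
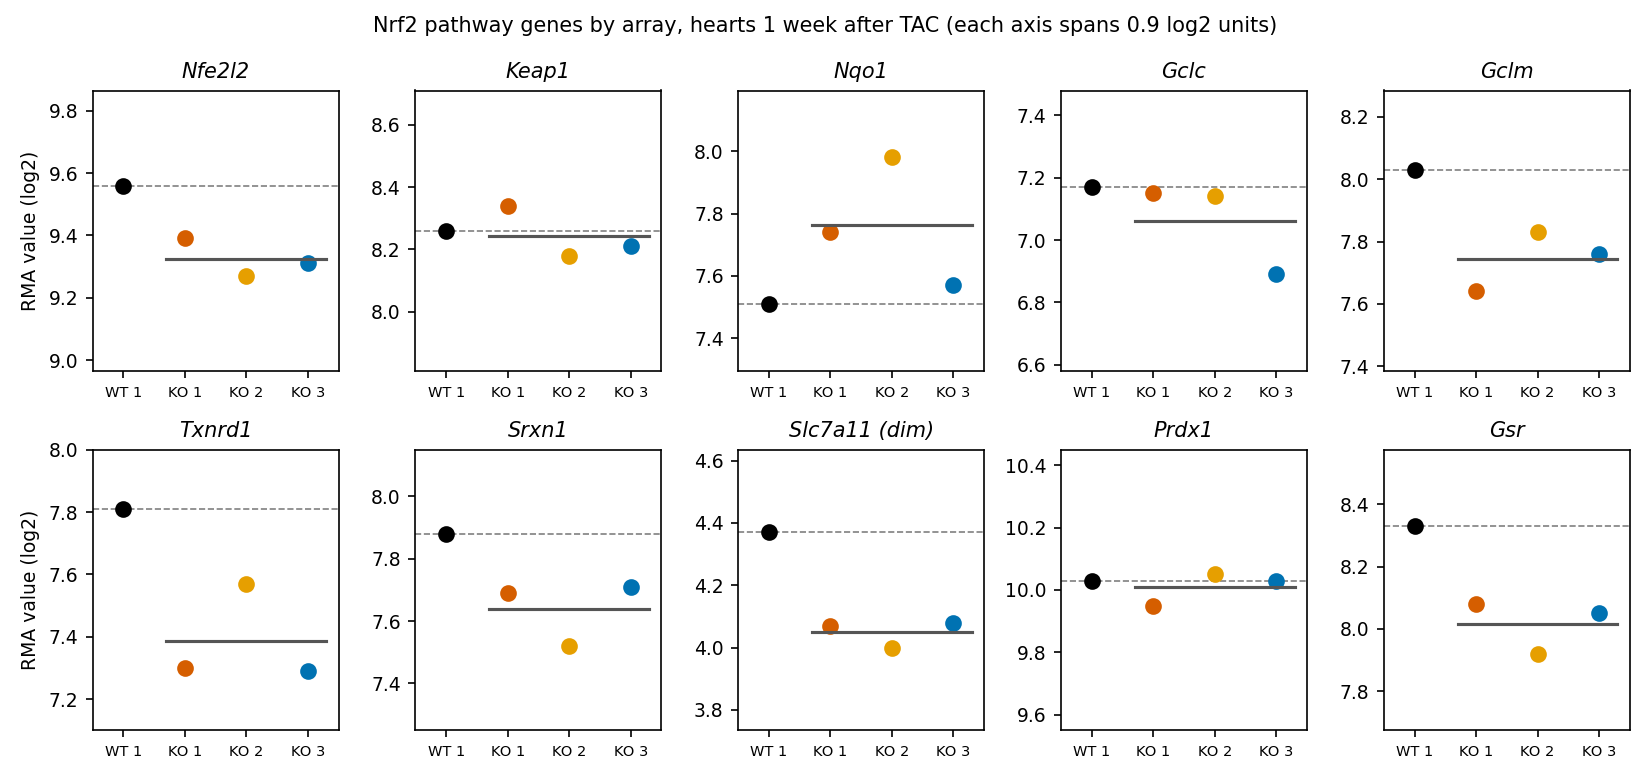
RMA values (log2) of the 10 Nrf2 pathway genes on the wild type array (WT 1) and the 3 knockout arrays (KO 1 to 3), 1 point per array, with the wild type level as a dashed line and the knockout mean as a solid bar. In 7 panels the 3 knockout points lie below the dashed line, in that of Nqo1 they lie above it, and each axis spans the same 0.9 log2 units around a different level.

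Nfe2l2 itself read 9.56 in wild type and 9.39, 9.27 and 9.31 in the knockouts. The knockout values lay within 0.12 of each other and did not reach the wild type value. The knockout mean was 9.32 ± 0.06 (SD, n = 3), and the difference was -0.24 (SE 0.17, limma adjusted p = 0.945). Its 95% interval ran from -0.64 to 0.17. The pair with low Xist, knockout 3 and wild type 1, differed by -0.25.

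Keap1, the repressor of Nrf2, read 8.26 in the wild type heart against 8.34, 8.18 and 8.21. The wild type value lay inside the knockout range, and the difference was -0.02 (SE 0.18, limma adjusted p = 0.997). It kept this sign in 8 of 12 alternative analyses, so Keap1 has no direction here, and its 95% interval of -0.43 to 0.40 leaves room for a modest change either way.

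The glutathione arm begins with cystine. Slc7a11 encodes xCT, the transporter that brings cystine into the cell in exchange for glutamate. Its probe set was dim, with 4.37 in wild type and 4.07, 4.0 and 4.08 in the knockouts. All 3 knockout values were lower and lay within 0.08 of each other, and the difference was -0.32. RMA compresses differences between dim probe sets, and the gene has no test at the main filter (limma adjusted p = 0.959 with no filter, the only alternative that tests it).

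Glutamate-cysteine ligase, the rate-limiting enzyme of glutathione synthesis, has a catalytic subunit encoded by Gclc and a modifier subunit encoded by Gclm. Gclm read 8.03 in wild type and 7.64, 7.83 and 7.76 in the knockouts, with no overlap and a knockout mean of 7.74 ± 0.10 (SD, n = 3). The difference was -0.29 (SE 0.18, limma adjusted p = 0.923), with a 95% interval of -0.71 to 0.14. Gclc read 7.17 against 7.15, 7.14 and 6.89. Its knockouts 1 and 2 were within 0.03 of the wild type heart, and the difference of -0.11 (SE 0.19, limma adjusted p = 0.991) came mostly from knockout 3, without which it was -0.03. In knockout 3 both subunits stood at nearly the same distance below wild type 1, -0.28 for Gclc and -0.27 for Gclm.

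Gsr encodes glutathione reductase, which returns oxidised glutathione to its reduced form with NADPH. It read 8.33 in wild type and 8.08, 7.92 and 8.05 in the knockouts. The gap between the wild type value and the nearest knockout value exceeded the whole range of the knockout values, 0.16. The difference was -0.31 (SE 0.18, limma adjusted p = 0.923), and -0.28 between knockout 3 and wild type 1.

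Txnrd1, cytosolic thioredoxin reductase, showed the largest difference of the 10 genes. It read 7.81 in wild type and 7.30, 7.57 and 7.29 in the knockouts. Knockouts 1 and 3 were alike and knockout 2 lay between them and the wild type heart. The knockout mean was 7.39 ± 0.16 (SD, n = 3), a 1.34-fold lower level, and the difference was -0.42 (SE 0.19, limma adjusted p = 0.883), with a 95% interval of -0.88 to 0.04. Its adjusted p ran from 0.558 to 0.997 over the alternatives. Of all genes tested, 9.96% had a larger difference in either direction. Between knockout 3 and wild type 1 the difference was -0.52.

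Srxn1 encodes sulfiredoxin, which repairs peroxiredoxins that have been overoxidised. It read 7.88 in wild type and 7.69, 7.52 and 7.71 in the knockouts, with no overlap. The difference was -0.24 (SE 0.18, limma adjusted p = 0.945), and -0.17 between knockout 3 and wild type 1. Prdx1, the abundant cytosolic peroxiredoxin that Srxn1 can repair, overlapped between genotypes. It read 10.03 in wild type and 9.95, 10.05 and 10.03 in the knockouts, a difference of -0.02 (SE 0.17, limma adjusted p = 0.997), with a 95% interval of -0.43 to 0.39 and a sign that changed between analyses. A second probe set annotated with the same 5 accessions read 9.40 and then 9.37, 9.45 and 9.33, also a difference of -0.02. Which of the 2 probe sets could also read a copy of the gene elsewhere in the genome was not analysed here. Prdx1 and Srxn1 are the 2 genes whose windows hold TGANTCAGC, and their differences were -0.02 and -0.24.

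Nqo1, the quinone reductase often used as a readout of Nrf2, went the other way. It read 7.51 in wild type and 7.74, 7.98 and 7.57 in the knockouts, all 3 higher, but spread over 0.41. The difference was 0.25 (SE 0.21, limma adjusted p = 0.957), with a 95% interval of -0.25 to 0.75, and it was 0.145 without knockout 2. The pair with low Xist differed by 0.06, so most of the difference lay in knockouts 1 and 2, the hearts with high Xist. Whether that pattern has a part in the result was not tested.

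Set beside Hmox1, these differences were small. Hmox1, which encodes heme oxygenase 1 and is repressed by Bach1 as well as induced by Nrf2, read 9.98 in wild type and 7.23, 7.49 and 7.47 in the knockouts. Its difference was -2.58 (SE 0.19, limma adjusted p = 0.0414), with a 95% interval of -3.03 to -2.13. Over 11 alternatives the difference stayed between -2.63 and -2.50 and the adjusted p ran from 0.0121 to 0.997. The call was lost in 5 of them, among them each that left out 1 knockout array (adjusted p = 0.997, 0.995 and 0.336 without knockout 1, 2 and 3). Among the 9 tested pathway genes the lowest interval bound was -0.88, for Txnrd1, and the highest was 0.75, for Nqo1. None of these intervals reached a 2-fold change in either direction, whereas that of Hmox1 lay wholly beyond it. The intervals rest on the spread of 3 knockout arrays and a prior taken from all genes.

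**Figure D2:**
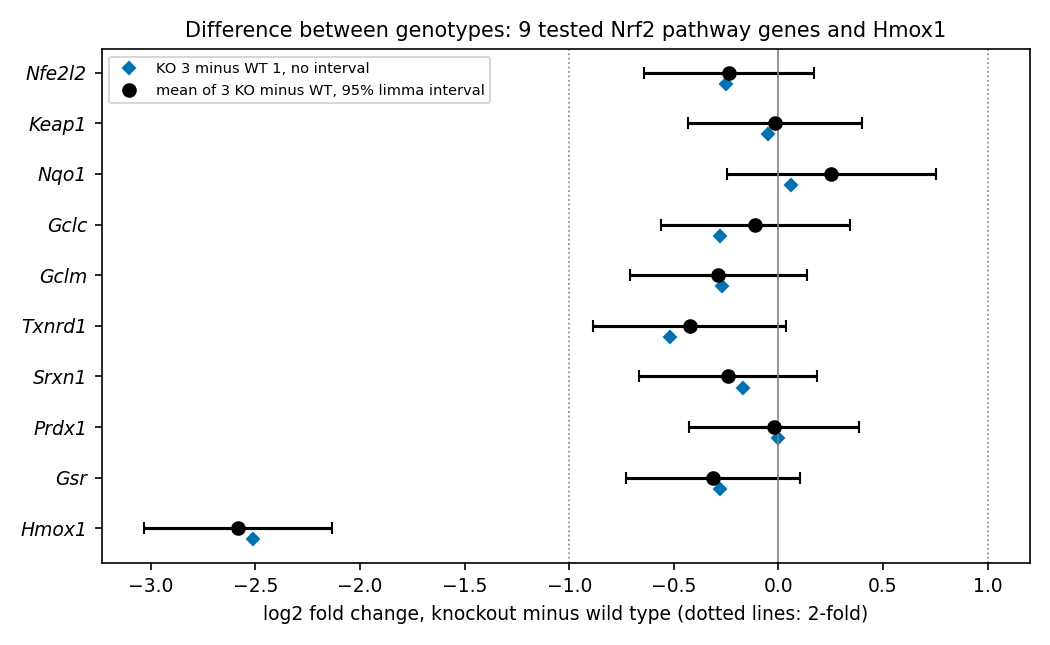
Difference between genotypes (log2, knockout minus wild type) for the 9 tested pathway genes and Hmox1, with 95% limma intervals, and the difference between knockout 3 and wild type 1 alone as diamonds. The intervals of the 9 genes stay between -0.88 and 0.75, inside the dotted 2-fold lines, and that of Hmox1 runs from -3.03 to -2.13.

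**Figure D3:**
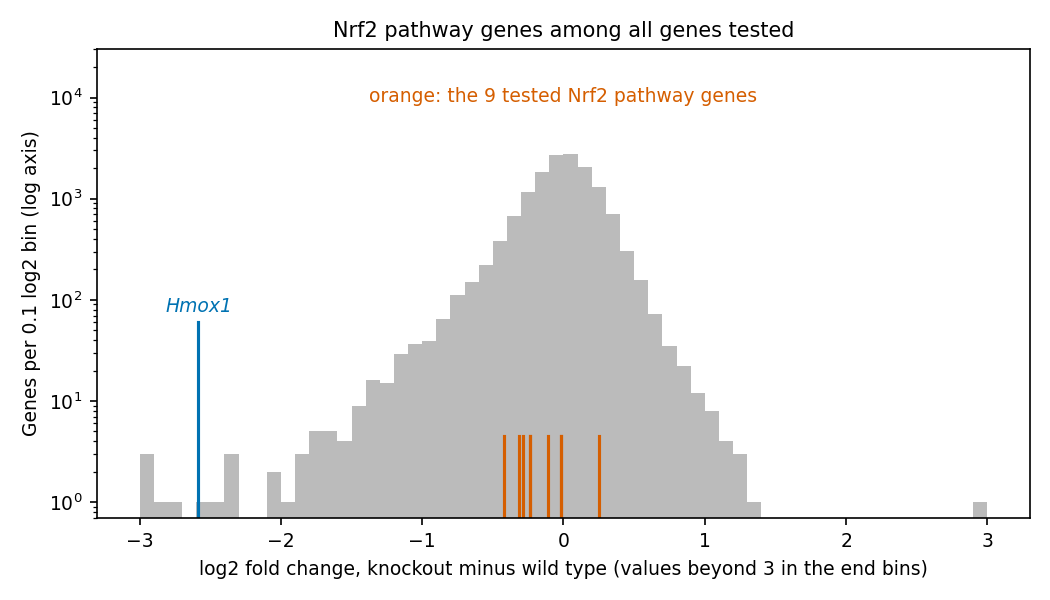
Distribution of the difference between genotypes (log2, knockout minus wild type) over the 14955 genes tested, in bins of 0.1 on a log count axis, with the 9 tested pathway genes as orange lines and Hmox1 in blue. The orange lines lie within the bulk of the genes, from -0.42 to 0.25, and Hmox1 lies far out at -2.58.

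Other components of the pathway were read from lists written from general knowledge. Regulators of Nrf2 (Cul3, Rbx1, Bach1, small Maf genes and others, 20 tested of 22) had a median difference of 0.01. Of these 20, 7 had all knockout values below the wild type and 5 had all above (35% and 25%). Over all genes tested these shares were 24.6% and 23.9%. Limma called 0 of the 20 (0 at an unadjusted p under 0.05). Whether the list differs from other genes was not tested. Maff, a small Maf partner, read 6.22 in the wild type heart against 5.70, 5.99 and 5.98, a difference of -0.33. Dcaf11, a receptor of a Keap1-independent ubiquitin ligase for Nrf2, differed by 0.37, but its knockout 3 value of 8.16 was next to the wild type value of 8.11. Sqstm1, the autophagy receptor p62 that binds Keap1, read 10.54 against 10.97, 10.91 and 10.71, a difference of 0.32, and the kinase gene Fyn differed by 0.23.

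Further Nrf2 targets did not share 1 direction. Of 32 tested genes, 8 lay below and 9 above on every knockout array (25% and 28.1%), with a median of 0.05. These shares were close to those over all genes tested, 24.6% and 23.9%. Limma called 0 of the 32. At an unadjusted p under 0.05 there were 4 lower and 2 higher, beside 4.05% and 1.68% of all genes. Whether the list differs from other genes was not tested. Ephx1, microsomal epoxide hydrolase, read 8.33 in wild type and 8.89, 9.10 and 8.98 in the knockouts, a difference of 0.66 (limma adjusted p = 0.559). Aox1, aldehyde oxidase, read 6.97 against 7.74, 7.64 and 7.49, a difference of 0.65. Akr1b8, an aldo-keto reductase, was at 6.91 against 5.88, 6.53 and 6.32, a difference of -0.67. The glutathione transferase gene Gsta3 read 7.27 and 7.54 in knockouts 1 and 2 but 6.05 in knockout 3, next to 6.24 in the wild type heart, and so divided the arrays as Xist did.

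Of 25 genes of the glutathione system outside the 10 genes, 11 lay above and 5 below on every knockout array. These shares were 44% and 20%, beside 23.9% and 24.6% of all genes tested. The median of the 25 genes was 0.13, and 0.01 between knockout 3 and wild type 1. Limma called 0, and 2 of 25 were higher at an unadjusted p under 0.05, beside 1.68% of all genes. Whether the list differs from other genes was not tested. Gstt2, a theta class glutathione transferase, read 5.67 against 6.39, 6.28 and 6.31, a difference of 0.66. Hagh, hydroxyacylglutathione hydrolase, differed by 0.68, Mgst3, a microsomal glutathione transferase, by 0.80, and Oplah, which recycles oxoproline, by 0.44. For Mgst3 knockout 3 read 8.69, close to the wild type 8.48, against 9.41 and 9.74 in knockouts 1 and 2.

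In the thioredoxin and peroxiredoxin list (19 tested) 7 genes lay below and 6 above (36.8% and 31.6%), with a median of 0.09. Over all genes tested 24.6% lay below and 23.9% above. Limma called 0, with 1 lower and 2 higher at an unadjusted p under 0.05, beside 4.05% and 1.68% of all genes. Whether the list differs from other genes was not tested. Sesn1, a sestrin, read 8.48 against 9.61, 9.71 and 9.20, a difference of 1.03 (limma adjusted p = 0.461). Prdx2, a cytosolic peroxiredoxin like Prdx1, was at 11.02 against 11.49, 11.77 and 11.49, a difference of 0.56, while Txndc5, a disulfide isomerase of the endoplasmic reticulum, differed by -0.52. Msra, which reduces oxidised methionine, differed by 0.43. Txn1 and Slc3a2 were chosen after their values were seen, for their roles beside Txnrd1 and Slc7a11. Txn1, the thioredoxin that Txnrd1 reduces, read 11.63 in wild type and 11.25, 11.11 and 11.29 in the knockouts, a difference of -0.41 (limma adjusted p = 0.878). Their relatives Txnrd2, Txnrd3 and Txn2, also named after their values were seen, differed by 0.25, 0.10 and 0.03. Txnrd2 lay above wild type on every knockout array, and Txnrd3 and Txn2 overlapped. Slc3a2, the heavy chain that pairs with xCT, belongs to the glutathione and ATF4 lists and not to this one. It read 9.76 against 9.62, 9.26 and 9.38, all 3 below.

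Among 16 other antioxidant genes 7 lay above and 4 below (43.75% and 25%), with a median of 0.12. Over all genes tested these shares were 23.9% and 24.6%. Limma called 0, with 1 higher at an unadjusted p under 0.05, beside 1.68% of all genes. Whether the list differs from other genes was not tested. Ucp3, a mitochondrial uncoupling protein of muscle, differed by 1.15, and Nqo2, a quinone reductase related to Nqo1, by 0.28. The metallothionein gene Mt2 differed by -0.47 and the extracellular superoxide dismutase gene Sod3 by -0.41. Targets of ATF4, a stress factor that shares Slc7a11 with Nrf2, had 6 below and 5 above of 21, with a median of -0.08. Those shares, 28.6% and 23.8%, were close to the 24.6% and 23.9% of all genes tested. Limma called 0 of the 21, with 3 lower and 2 higher at an unadjusted p under 0.05, beside 4.05% and 1.68% of all genes. Slc7a5, an amino acid transporter that also pairs with Slc3a2, differed by -0.78 and Psat1, an enzyme of serine synthesis, by -0.76, whereas Vldlr and Ddit4 differed by 0.82 and 0.81.

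The NADPH oxidase genes encode a source of the oxidants that the pathway counters, and several of them belong to phagocytes. Of 10 tested, 6 were below and 3 above in all knockout hearts, beside 24.6% below and 23.9% above over all genes tested, and the median was -0.32. Limma called 0, and 3 were lower at an unadjusted p under 0.05, beside 4.05% of all genes. Whether the list differs from other genes was not tested. The 3 above, named after their values were seen, were Nox4, Duox1 and Duox2, which differed by 0.53, 0.44 and 0.26. Ncf4, Rac2 and Ncf1, parts of the phagocyte oxidase, differed by -0.75, -0.74 and -0.65. Cybb, its catalytic subunit, was at 7.68 and 8.06 in knockouts 1 and 2 but at 8.65 in knockout 3, next to the wild type 8.70. Macrophage markers were low beside them, and all 9 were lower than wild type in each of the knockout hearts. Their mean level was 8.69 in wild type and 7.42, 7.56 and 8.03 in the knockouts. Their part in the differences of the Nrf2 pathway genes was not tested. In RNA from whole hearts fewer cells of a type and less RNA per cell cannot be told apart. Endothelial markers had a mean level of 8.54 in wild type and of 8.71, 8.73 and 9.04 in knockouts 1, 2 and 3. Smooth muscle markers had 8.63 and 7.98, 8.49 and 8.13, and fibroblast markers 10.14 and 9.33, 9.78 and 10.62, in the same order. Markers within these lists did not all move together. Of 6 endothelial markers 4 lay above on every knockout array and 2 overlapped. Of 4 smooth muscle markers 3 lay below and 1, Myh11, overlapped. Of 6 fibroblast markers 1 lay below, 1 above and 4 overlapped.

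**Figure D4:**
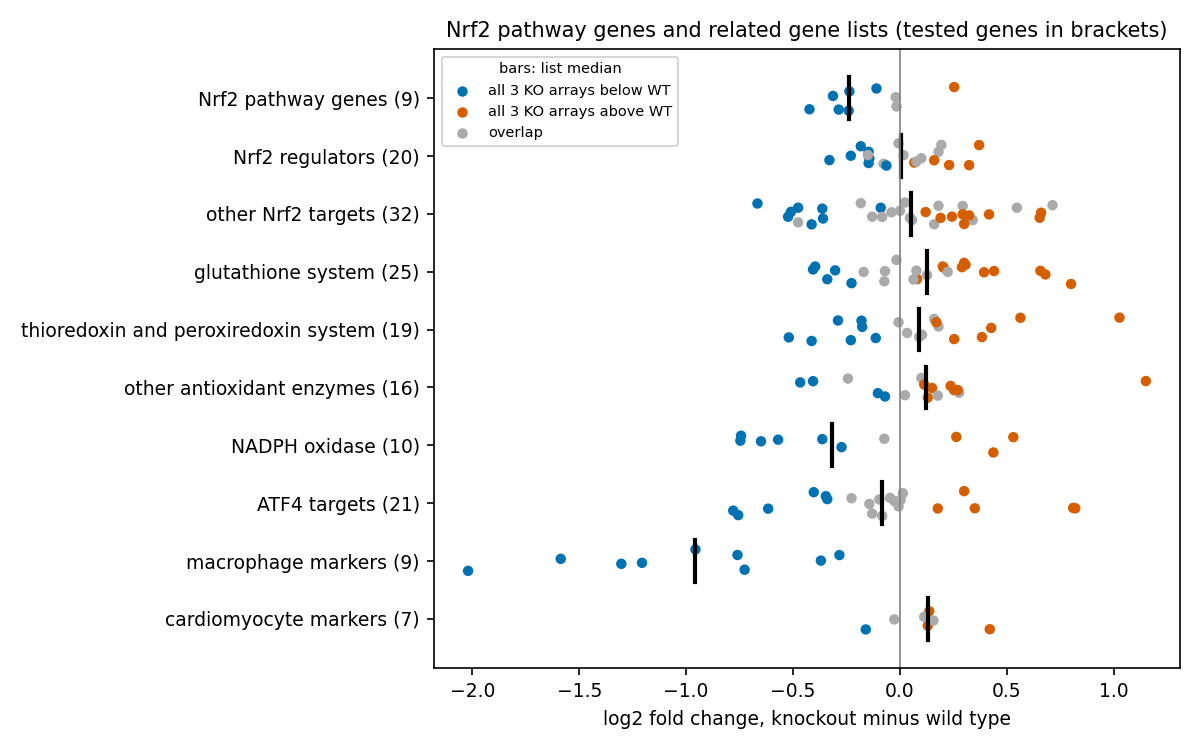
Difference between genotypes (log2, knockout minus wild type) of each tested gene in the Nrf2 pathway set and in related lists, 1 point per gene, coloured by whether all 3 knockout arrays lie below or above the wild type array or overlap it, with list medians as bars. The pathway genes range from -0.42 to 0.25 with a median of -0.24. Further Nrf2 targets range from -0.67 to 0.71 with a median of 0.05, and macrophage markers lie lowest.

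Genes with profiles most like those of Txnrd1 and Nfe2l2 were found by the root mean square difference of array values after each gene's mean over the 4 arrays was subtracted. For Txnrd1 the nearest of 14110 genes were Cct8, a subunit of the chaperonin that folds actin and tubulin (0.011), Sdad1 (0.017), Uso1, a tether of transport vesicles (0.024), Usp53 (0.024) and Mtap, an enzyme of methionine salvage (0.027). For Nfe2l2 they were Gabpb1, a subunit of the GABP transcription factor (0.0071), Pmf1, Pkd1l2 and Ece1 (each 0.0083) and Ankib1 (0.0087). Slc7a11, too dim to be tested, was not compared, and none of the other tested pathway genes was among these neighbours. Within 0.05 there were 26 genes for Txnrd1 and 227 for Nfe2l2, so 4 arrays set few genes apart from such small differences.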

How the data were processed

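RNA from 4 heart samples (1 wild type, 3 MAFbx knockout) was measured on 1 array each. The authors deposited log2 values that they had computed with Affymetrix Expression Console and RMA, per the submitters' processing notes (no versions are named there). RMA makes the distributions of the arrays nearly equal, which hides a shift common to most genes. Scanner intensities were not analysed here. Of 35556 probe sets 21789 had 1 gene symbol, 1621 several and 12146 were unlisted in the platform annotation. All 10 pathway genes matched RefSeq by gene identifier.

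The comparison of genotypes used R 4.3.3 and limma 3.58.1 (two-sided lmFit and eBayes, with 2 residual and 5.01 prior degrees of freedom), tested on simulated data. The pathway genes, the lists and the tests were chosen with earlier results of these data known. Named are the 10 genes, Fbxo32, Hmox1, Xist and Eif2s3y, the 4 genes of each list with the largest absolute difference, and the 5 nearest profiles of Nfe2l2 and of the pathway gene with the largest difference. Further genes, such as Txn1 and Txnrd2, were named after their values were seen. Lists share some genes. Alternatives changed the normalization, the filter, the choice of probe set, the variance model, the threshold and the arrays used. The number of arrays limits the precision.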

Additional observations from a re-analysis of the deposited data

How the results depend on the processing

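No pathway gene passed the limma threshold in any of the alternatives with a test. Nfe2l2, Gclm, Txnrd1, Srxn1, Slc7a11, Gsr, Gclc and Nqo1 kept their sign in all 12, but most of these could not have changed it. Each of these genes has 1 probe set, so the filter, variance model and probe set choice left its difference unchanged. Its knockout values all lay on 1 side of the same wild type array, so leaving out knockout arrays could not reverse it. Only a changed normalization could have reversed a sign. Keap1 turned to 0.014 with renewed quantile normalization and to 0.0067 with centred arrays, and without 1 knockout array at a time it ran from -0.065 to 0.015. Prdx1 turned to 0.0013 and 0.0033 in the same 2 analyses, and ran from -0.04 to 0.01 without 1 knockout array. Without 1 knockout array at a time the median of the 10 genes ran from -0.25 to -0.20, and 7 or 8 of them lay below the wild type array. That count could not fall under 7, because fewer knockout arrays then had to lie below the same wild type array. With arrays centred on their medians, 6 of the genes lay below it on every knockout array. The count of genes called over the whole array, 1 at the main settings, was 0 with renewed quantile normalization or with no filter, and 0 without any 1 knockout array (lowest and highest both 0). It was 2 with genes under the median level left out, 7 with the probe set of lowest mean, 7 with an intensity trend and 9 with robust eBayes, and 605 lower and 251 higher at an unadjusted p under 0.05. The cause of these changes was not tested. No paired analysis was possible because the labels link no wild type sample to a knockout sample. Dim signal limits Slc7a11, and 1 wild type array limits every comparison.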
